A study of Mus musculus with 2 samples.

Results

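The nuclear-encoded genes of the mitochondrial respiratory chain were taken as all gene symbols that begin with Nduf, Uqcr, Atp5 or Cox followed by a digit from 4 to 8, together with Sdha, Sdhb, Sdhc, Sdhd, Cyc1 and Cycs. Symbols that contain -ps were left out, so a subunit gene with such a symbol is not covered. The rule found 91 of the 15574 genes with a read in either library. All 91 were listed in both libraries. The data are messenger RNA counts from Th17 cells, the CD4 T cells that make IL-17, which were grown in culture from naive mouse T cells of the C57BL/6 strain. One library came from cells labelled CREB KO and the other from wildtype cells, and both cultures had 6 days with IL6, TGFb, IL1b and IL23 and then 4 h on plate-bound CD3 antibody. CREB is the transcription factor through which cyclic AMP acts on many genes, and the study looked for the genes it regulates in Th17 cells. The sources used here do not give how CREB was removed, or from which cells.

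In all, 23938112 reads were counted for the library labelled knockout and 26525471 for wildtype. Creb1, the targeted gene, had 25 reads in the former and 13 in the latter. It therefore does not bear out the label. The gene had few reads in wildtype too, so these counts cannot show whether Creb1 was lost. Whether the label holds was not tested in another way, and directions are given for the library as labelled. With 1 library per genotype there is no replicate error and no p-value, and a difference lies between 2 libraries, not between genotypes. Of the 6 T cell and Th17 markers, 5 were listed, among them Cd3e with 10434 and 11102 reads and Cd4 with 19552 and 23125 (library labelled knockout first, here and below), while Trac was not listed. Il17a had 6981 and 13093 reads and Il17f 13041 and 39898, and the part of this in the results below was not tested. Markers of other cells were scarce: 3 of 4 B cell genes with 53 and 54 reads in all, 2 of 5 myeloid genes with 25 and 21, and neither NK cell gene. The CD8 gene Cd8b1 had 234 and 237 reads, and Cd8a was not listed. Because Trac was not listed in these T cells either, an unlisted symbol does not show that a cell type was absent.

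As background, the respiratory chain passes electrons from NADH through complex I, or from succinate through complex II, by way of ubiquinone to complex III, then by cytochrome c to complex IV, where oxygen is reduced. Complexes I, III and IV pump protons across the inner mitochondrial membrane, and complex V, the ATP synthase, uses the gradient to make ATP. Mitochondrial DNA encodes a few core subunits of every complex but complex II, and most of the genes described here encode other subunits. A rule on symbols need not take in every nuclear-encoded subunit. It also took in 7 assembly factors of complex I, and Atp5s and Atp5sl, which are not counted among the structural subunits. Activated T cells raise glycolysis and respiration together. Of the 13 mitochondrial DNA genes none was listed under an mt- symbol, and they were not analysed here.

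The 91 genes together took 1.46% of the counts under the knockout label and 1.43% under wildtype. Their summed, scaled counts had a ratio, library labelled knockout over wildtype, of 1.01 (1.006 to 1.015, a 95% interval from the exact conditional binomial that covers counting error only). Reads copied from one molecule by PCR are counted more than once, which can make such intervals too short. In bulk RNA, fewer cells of a type and less RNA per cell cannot be told apart. Of the 91, 89 had a mean of at least 1 CPM, the count scaled to library size. Only 2 of those 89 were 1.5-fold or more higher with an interval excluding 1, against 2.48% of all 10462 genes tested, and none was 1.5-fold lower, against 1.5%. The 2 were Ndufs1 and Cox6b2, both at under 3 CPM in either library. After the deeper library was thinned to the depth of the other, 1 of them (Cox6b2) was left, and at 1.2-fold Ndufs1 gave way to Atp5k. At the smaller limit of 1.2-fold, 4 were higher (Ndufs1, Cox6b2, Ndufs5 and Ndufa7), against 6.19% of all genes, and 2 were lower (Ndufaf7 and Ndufb2), against 5.48%. The members' shares were below the background share in all 4 cases.

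More members had an interval above 1 than below it, with small ratios. The median log2 ratio of the 89 was 0.04, against -0.01 for all genes tested. An interval above 1 was seen for 33 members (37.1%) and one below 1 for 10 (11.2%), while 16.2% and 19.5% of all genes tested had these. More reads make an interval narrower, and 48 of the 91 members had 100 CPM or more. Of those 48, 35.4% had an interval above 1 and 10.4% one below, against 24.0% and 34.6% of all genes of that level. Among the 81 members of 10 CPM or more, none was 1.5-fold higher or lower (0.319% and 0.236% of all genes of that level), 1 was 1.2-fold higher (3.76%) and 2 were 1.2-fold lower (4.19%). The spread of log2 ratios over members of 10 CPM or more was 0.113 (SD, 81 genes), against 0.157 over all 7215 genes of that level. In all, 82 of the 89 lay within 1.2-fold, and the plot of ratios by complex draws 88 of the 89.

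**Figure D1:**
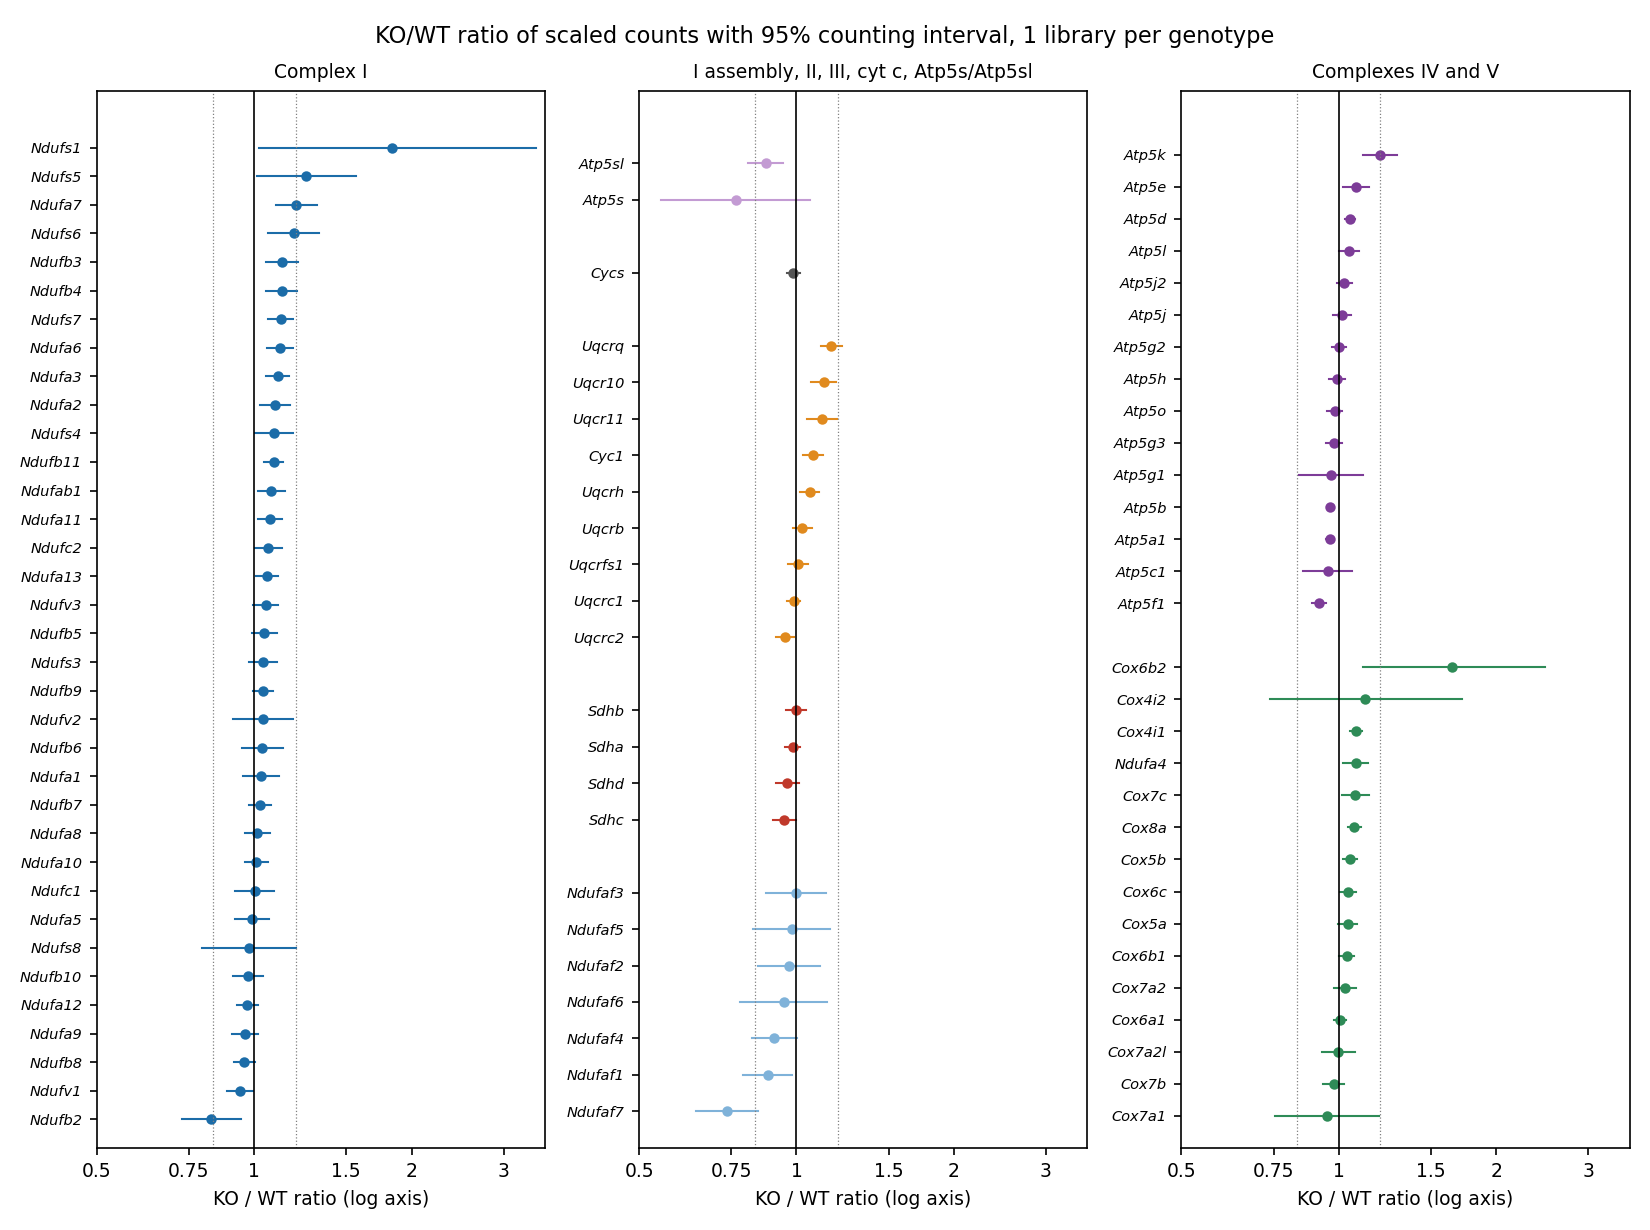
KO/WT ratio of scaled counts (log axis) for 88 of the 89 genes of at least 1 CPM, with 1 row per gene, 1 library per genotype and lines for the 95% counting interval. The solid line marks 1 and the dotted lines 1.2-fold either way. Of the 88 genes drawn, 81 lie between the dotted lines, and the widest intervals belong to genes with few reads such as Ndufs1 and Cox6b2.

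Because CREB binds DNA at the cAMP response element, the promoters of the genes were read for it. RefSeq promoter windows of the GRCm38.p6 build, from 250 bases before to 50 after each start, were found for 75 of the 91. The full palindromic element TGACGTCA stood in the windows of 5 of the 75 (6.67%), against 1.79% of all 32851 windows and 3.80% of the 7912 genes tested that have one. The shorter TGACG, also searched on both strands and held by every full element, stood in 27 (36%), against 20.8% of all windows and 36.8% of the genes tested. The element of NRF1, a regulator of respiratory chain genes (GCGC, any base, then TGCGC, both strands), stood in 19 (25.3%), against 4.60% of all windows and 12.3% of the genes tested. Such matches describe letters and do not show binding.

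The 5 promoters with the full element are printed because they are the members that hold the letters of the CREB consensus. They belong to Cycs, Ndufa10, Ndufa11, Ndufb2 and Uqcrfs1, and the 250 bases before the start run 5′ to 3′ on the gene's strand, with TGACGTCA, TGACG and any NRF1 element, on either strand, in capitals. Sdha is added as a promoter with 3 NRF1 elements and no full element. The positions are chr6:50566570-50566819 (minus strand) for Cycs, chr1:92473759-92474008 (minus) for Ndufa10, chr17:56717512-56717761 (plus) for Ndufa11, chr6:39592315-39592564 (plus) for Ndufb2, chr13:30545317-30545566 (minus) for Uqcrfs1 and chr13:74350241-74350490 (minus) for Sdha.
Cycs: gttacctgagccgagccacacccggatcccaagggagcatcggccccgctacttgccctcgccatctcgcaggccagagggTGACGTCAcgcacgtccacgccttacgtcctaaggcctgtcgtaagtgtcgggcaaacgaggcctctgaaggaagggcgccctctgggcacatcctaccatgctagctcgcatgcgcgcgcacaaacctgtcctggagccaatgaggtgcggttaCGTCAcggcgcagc
Ndufa10: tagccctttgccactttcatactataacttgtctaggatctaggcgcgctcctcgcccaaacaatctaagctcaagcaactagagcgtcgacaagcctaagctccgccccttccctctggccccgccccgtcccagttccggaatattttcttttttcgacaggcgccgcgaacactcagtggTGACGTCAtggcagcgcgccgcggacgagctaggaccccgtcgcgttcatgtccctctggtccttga
Ndufa11: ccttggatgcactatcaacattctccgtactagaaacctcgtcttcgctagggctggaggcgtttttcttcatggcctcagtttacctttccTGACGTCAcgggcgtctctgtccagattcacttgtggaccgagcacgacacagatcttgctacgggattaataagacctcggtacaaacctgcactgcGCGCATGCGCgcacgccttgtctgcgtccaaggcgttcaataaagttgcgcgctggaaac
Ndufb2: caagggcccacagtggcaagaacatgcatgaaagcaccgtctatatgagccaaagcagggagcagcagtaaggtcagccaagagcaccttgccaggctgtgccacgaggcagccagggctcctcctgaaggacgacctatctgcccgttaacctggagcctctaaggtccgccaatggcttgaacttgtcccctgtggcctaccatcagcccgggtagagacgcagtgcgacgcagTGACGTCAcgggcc
Uqcrfs1: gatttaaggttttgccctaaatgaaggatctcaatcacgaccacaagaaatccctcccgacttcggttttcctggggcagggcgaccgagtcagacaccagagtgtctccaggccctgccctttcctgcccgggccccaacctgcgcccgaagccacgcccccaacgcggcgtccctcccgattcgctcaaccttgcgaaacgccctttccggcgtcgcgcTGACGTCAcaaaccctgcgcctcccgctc
Sdha: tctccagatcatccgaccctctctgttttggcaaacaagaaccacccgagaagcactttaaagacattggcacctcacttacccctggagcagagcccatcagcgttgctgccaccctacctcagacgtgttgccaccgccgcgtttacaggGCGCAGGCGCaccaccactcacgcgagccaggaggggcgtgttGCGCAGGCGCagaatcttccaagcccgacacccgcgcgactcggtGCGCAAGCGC

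The full element began 169 bases before the start in Cycs, 158 in Ndufa11, 67 in Ndufa10, 29 in Uqcrfs1 and 14 in Ndufb2. The counts of these 5 genes were close in the 2 libraries except for Ndufb2. Cycs had 8263 and 9232 reads and a ratio of 0.986 (0.958 to 1.02). Ndufa10 had 2947 and 3217 reads, a ratio of 1.01 (0.960 to 1.06). Ndufa11 had 2733 and 2810 reads and lay a little above 1, at 1.07 (1.02 to 1.13). Uqcrfs1, with 3554 and 3893 reads, was at 1.01 (0.961 to 1.05). Ndufb2 alone was past the 1.2-fold limit, lower at 0.828 (0.727 to 0.943) on 411 against 547 reads. The median log2 ratio was 0.01 for the 5 and 0.04 for the other 70 members with a window. It was 0.02 for the 27 with TGACG and 0.03 for the 48 without. With an NRF1 element the 19 had -0.01, and without one the 56 had 0.04. Over all genes tested the medians were -0.02 with and -0.01 without the full element, and -0.01 both with and without the NRF1 element.

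Complex I, NADH dehydrogenase, was represented by 36 subunit genes, 7 of core subunits and 29 of accessory ones. Their summed counts were 74082 and 78558, a ratio of 1.04 (1.03 to 1.05), and the median log2 ratio was 0.06. The interval lay above 1 for 16 of the 36 (44.4%, against 16.2% of all genes tested). It lay below 1 for Ndufb2 and Ndufv1 (5.56%, against 19.5%). Of all genes of 10 CPM or more, 18.2% had an interval above 1 and 24.5% one below. Of those with exons under 1 kb, 38% and 8.38% had these. The 29 accessory genes had ratios from 0.828 to 1.26, 23 of them above 1, and summed to 1.04 (1.03 to 1.06). Among the most abundant by reads, Ndufb11, an accessory subunit of the membrane arm, had 177 and 163 CPM, a ratio of 1.09 (1.04 to 1.14). Ndufb9 had 151 and 145 CPM and an interval that includes 1, at 1.04 (0.994 to 1.09).

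Among complex I genes that reached 10 CPM, those with the highest ratios encode small accessory proteins. Ndufa7 had 983 and 899 reads, a ratio of 1.21 (1.10 to 1.32), and was past the 1.2-fold limit. Ndufs6, a zinc-binding subunit, had 636 and 589 reads, a ratio of 1.19 (1.06 to 1.33). Ndufb3 had 1661 and 1620 reads, a ratio of 1.13 (1.05 to 1.21). At the other end stood Ndufb2, given above, Ndufv1 and Ndufb8. Ndufv1, which carries the NADH-binding site, had 2253 and 2644 reads and a ratio of 0.939 (0.887 to 0.994). Ndufb8 had 3462 and 3985 reads, a ratio of 0.958 (0.915 to 1.002).

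The 7 core subunits, which form the electron path from NADH to ubiquinone, differed more in their levels than in their ratios. Levels are compared between genes as CPM per kb of exon (GENCODE M21, merged exons). Ndufs7 had 110 and 97.6 CPM per kb, Ndufs3 79.5 and 76.3 and Ndufv1 52.9 and 56.3. Ndufv2 had 10.5 and 10.1, and Ndufs8 had 5.74 and 5.89. Ndufs1, the largest subunit of the complex, had only 0.473 and 0.255 CPM per kb, on 32 and 19 reads, the lowest of the 36 genes. These 6 genes stood in the same order in both libraries. The Ndufs1 ratio of 1.83 (1.02 to 3.47) thus rested on those few reads, and the summed ratio of the other 6 core genes was 1.02 (0.991 to 1.04).

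The 3 low core genes were each annotated with several curated RefSeq transcripts, Ndufs1 with 4, Ndufs8 with 3 and Ndufv2 with 2. Ndufs3 and Ndufv1 have 1 each, but Ndufs7 has 2 and was not low. Over the 77 subunit genes of all complexes and Cycs, tissue-restricted isoforms left out, the median level was 126 CPM per kb for the 49 with 1 curated transcript, 89.0 for the 28 with 2 or more and 41.6 for the 10 with 3 or more. All genes tested showed the same order, at 13.2, 5.68 and 4.70 CPM per kb. Within complexes it did not always hold: complex IV had 237 for its 9 genes with 1 transcript and 453 for its 3 with 2 or more, and complex II 90.6 for 3 genes and 149 for 1. The part of transcript number in the low levels was not tested. Low accessory genes were Ndufb2 at 3.91 and 4.73 CPM per kb, with 4 curated transcripts, and Ndufs5 at 8.96 and 7.12, with 1. The length used matters here: divided by the median transcript length, the mean level of Ndufb2 over both libraries was 7.83 in place of 4.32. Ndufs5 had 185 and 162 reads and a ratio of 1.26 (1.01 to 1.56).

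**Figure D2:**
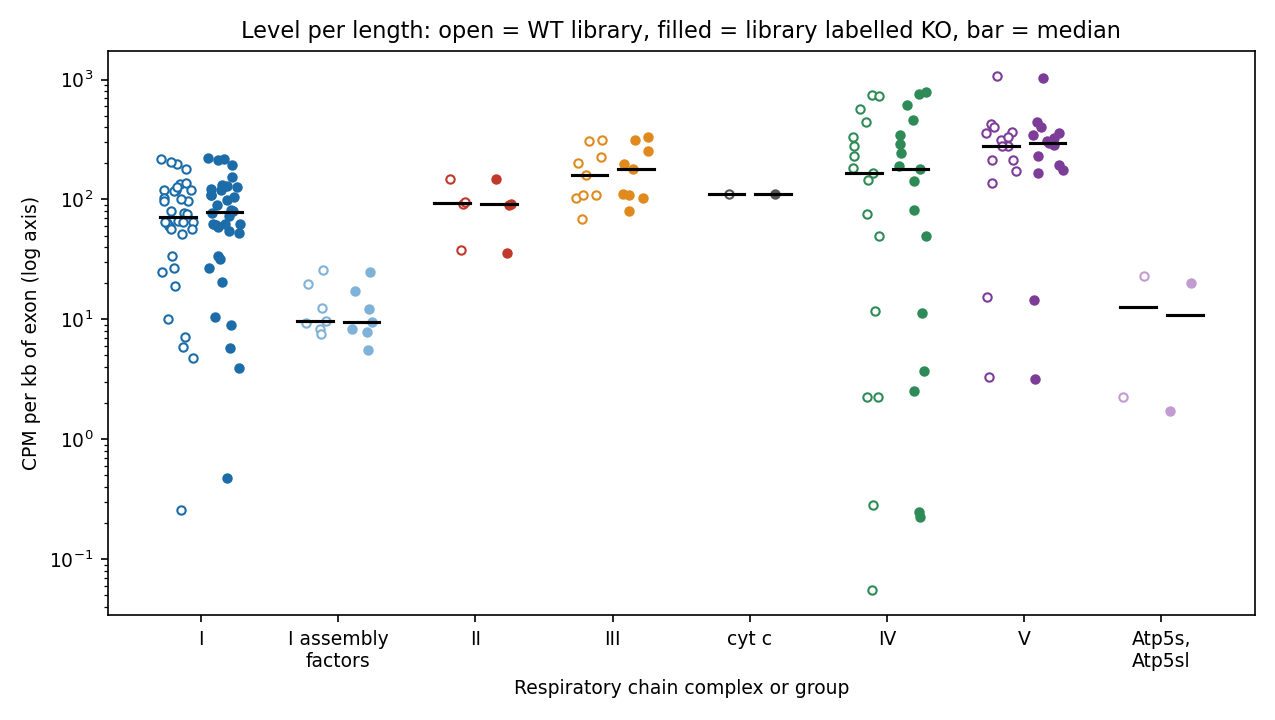
Level of each of the 91 genes per length (CPM per kb of exon, log axis) by complex, open points for the wildtype library, filled points for the library labelled knockout and bars for the median over genes. Complex V has the highest median and the complex I assembly factors the lowest of all groups, and the lowest point of complex I is Ndufs1.

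The assembly factors of complex I that are named Ndufaf, which help build it without staying in it, all had ratios below 1. The 7 genes, Ndufaf1 to Ndufaf7, had 3014 and 3674 reads in all, a ratio of 0.904 (0.861 to 0.949), and a median log2 ratio of -0.08. The interval included 1 for 5 of them and was below 1 for 2 (28.6%, against 19.5% of all genes tested). Of all genes of 10 CPM or more, 24.5% had an interval below 1. Of all 10462 genes, 5425 had a ratio below 1. Ndufaf7, a methyltransferase, had 360 and 539 reads and was past the 1.2-fold limit at 0.736 (0.642 to 0.843), the lowest ratio of all 89 genes. Ndufaf1, with 612 and 766 reads, was at 0.881 (0.791 to 0.981). Ndufaf4 had 730 and 888 reads, a ratio of 0.906, with an interval of 0.820 up to just above 1. The others lay closer to 1, with Ndufaf3 at 0.998 (0.875 to 1.14), Ndufaf5 at 0.980 (0.827 to 1.16), Ndufaf2 at 0.968 (0.845 to 1.11) and Ndufaf6 at 0.946 (0.781 to 1.14). As a group they were at a median of 9.43 and 9.63 CPM per kb, against 78.5 and 70.9 for the subunits.

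Assembly factors of any complex with other names were taken from a separate list, which was not split by complex. It also holds the ATP synthase inhibitor gene Atpif1. Of the list's 41 genes, 36 were listed and 32 reached 1 CPM, with 16 ratios above 1 and 16 below (median -0.02). The interval lay above 1 for 9 and below for 5 (28.1% and 15.6%, against 16.2% and 19.5% of all genes), and the summed ratio was 1.04 (1.02 to 1.05). Atpif1 gave 5674 and 5912 of the 30358 and 32281 reads in that sum, with a ratio of 1.06 (1.02 to 1.10). Past the 1.2-fold limit, 3 of the 32 were higher (against 6.19% of all genes) and 1 was lower (against 5.48%). Cox14 (945 and 838 reads, 1.24, 1.13 to 1.37), the copper chaperone gene Cox17 (2401 and 2156 reads, 1.23, 1.16 to 1.30) and Uqcc2 (1501 and 1361 reads, 1.22, 1.13 to 1.31) were higher. Cox10, which takes part in 1 step of making the heme of complex IV, was lower at 0.819 (0.753 to 0.892) on 956 and 1286 reads.

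Complex II, succinate dehydrogenase, also belongs to the citric acid cycle, and all 4 of its subunits are nuclear-encoded. Its genes had ratios just below 1 and close together. Sdha, the flavoprotein, had 261 and 265 CPM and a ratio of 0.983 (0.950 to 1.02). Sdhb, the iron-sulfur subunit, had 4079 and 4504 reads, a ratio of 0.998 (0.957 to 1.04). Of the membrane anchors, Sdhd had 2719 and 3121 reads with a ratio of 0.960 (0.912 to 1.01), and Sdhc had 2722 and 3166 with 0.948 (0.900 to 0.998). Summed, the complex was at 0.977 (0.956 to 0.998). Per kb, Sdhb had the highest level, 149 in both libraries, Sdhd had 92.0 and 95.8, Sdha 89.8 and 91.4 and Sdhc 35.8 and 37.7.

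Complex III, the cytochrome bc1 complex, was split between large and small subunits. The summed ratio of its 9 genes was 1.04 (1.02 to 1.05). All 5 small accessory genes had ratios above 1, together 1.09 (1.07 to 1.11). The interval lay above 1 for 4 of them (80%, against 16.2% of all genes tested). Of all genes of 10 CPM or more with exons under 1 kb, 38% had an interval above 1. All but Uqcrq of the 5 are that short. Uqcrq, named for ubiquinone binding, had the highest ratio, 1.17 (1.11 to 1.22) on 3515 and 3322 reads. Uqcr10 was at 1.13 (1.07 to 1.19), with 2652 and 2593 reads, and Uqcr11 at 1.12 (1.05 to 1.19), with 1900 and 1872. Uqcrh, the hinge protein that docks on cytochrome c1, had 4383 and 4561 reads and a ratio of 1.06 (1.02 to 1.10).

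The 2 large core proteins were the only complex III genes below 1. Uqcrc1 had 7824 and 8737 reads, a ratio of 0.987 (0.957 to 1.02), and Uqcrc2 4678 and 5429 reads, a ratio of 0.950 (0.913 to 0.988). Of the redox subunits, Cyc1, cytochrome c1, was at 1.08 (1.03 to 1.12) with 4020 and 4116 reads, while Uqcrfs1, the Rieske iron-sulfur protein, was at 1.01, as given above. Cycs, the soluble carrier between complexes III and IV that also starts the caspase cascade when released, had 344 and 349 CPM. Per kb it stood at 110 and 112, close to Cyc1 at 110 and 102. Of its 50-base words 28.5% also stand in transcripts of other annotated genes, 76 in all, so its count is uncertain.

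Complex IV, cytochrome c oxidase, had 17 genes, 15 of them at 1 CPM or more, and its ubiquitous subunits had ratios mostly a little above 1. Among the 11 ubiquitous subunits ratios ran from 0.978 to 1.08. Of their intervals, 7 lay above 1 (63.6%, against 16.2% of all genes tested) and none below (against 19.5%). Most of the 11 have exons under 1 kb. Of all genes of that length and 10 CPM or more, 38% had an interval above 1 and 8.38% one below. The sum over the 17 genes was at 1.04 (1.03 to 1.05). Cox4i1, the regulatory subunit that binds ATP, had 11264 and 11520 reads and a ratio of 1.08 (1.05 to 1.11). Cox8a had 10310 and 10610 reads, with 1.07 (1.04 to 1.10), and Cox6a1 10302 and 11289, with 1.01 (0.979 to 1.03). Ndufa4, long counted as a complex I subunit and now placed in complex IV, had 2683 and 2747 reads and a ratio of 1.08 (1.02 to 1.14), and Cox7c had 2221 and 2276, also 1.08 (1.01 to 1.14). Outside the tissue-restricted isoforms, the lowest ratios were those of Cox7b, 0.978 (0.934 to 1.02), and Cox7a2l, 0.998 (0.927 to 1.07). Cox7a2l, which helps join complexes III and IV into supercomplexes, had 1364 and 1506 reads.

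The isoforms of complex IV known from heart, muscle, lung or testis were low or near 0 in both libraries. Cox4i2, known from lung and induced by hypoxia, had 48 and 47 reads, and per kb Cox4i1 was 242 and 252 times higher. Cox6b2, a testis form, had 66 and 44 reads, a ratio of 1.65 (1.11 to 2.48), and took 0.798% and 0.502% of the pair's level per kb, Cox6b1 holding the rest. Cox7a1, the heart and muscle form, had 144 and 167 reads, a ratio of 0.951 (0.755 to 1.19), and 5.59% and 6.01% of the level per kb that it shares with Cox7a2. Cox6a2, of heart and muscle, had 4 reads and 1 read, and its ratio of 3.24 has an interval of 0.436 to 217. Ndufa4l2, a hypoxia-induced relative of Ndufa4, had 5 and 7 reads (0.802, 0.197 to 2.88). Cox6a2 and Ndufa4l2 were the only 2 of the 91 genes under 1 CPM. Cox7b2, Cox8b and Cox8c were not listed in either library. Of the 5 isoforms, Cox7a1 had the highest level per kb, 11.2 and 11.8.

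**Figure D3:**
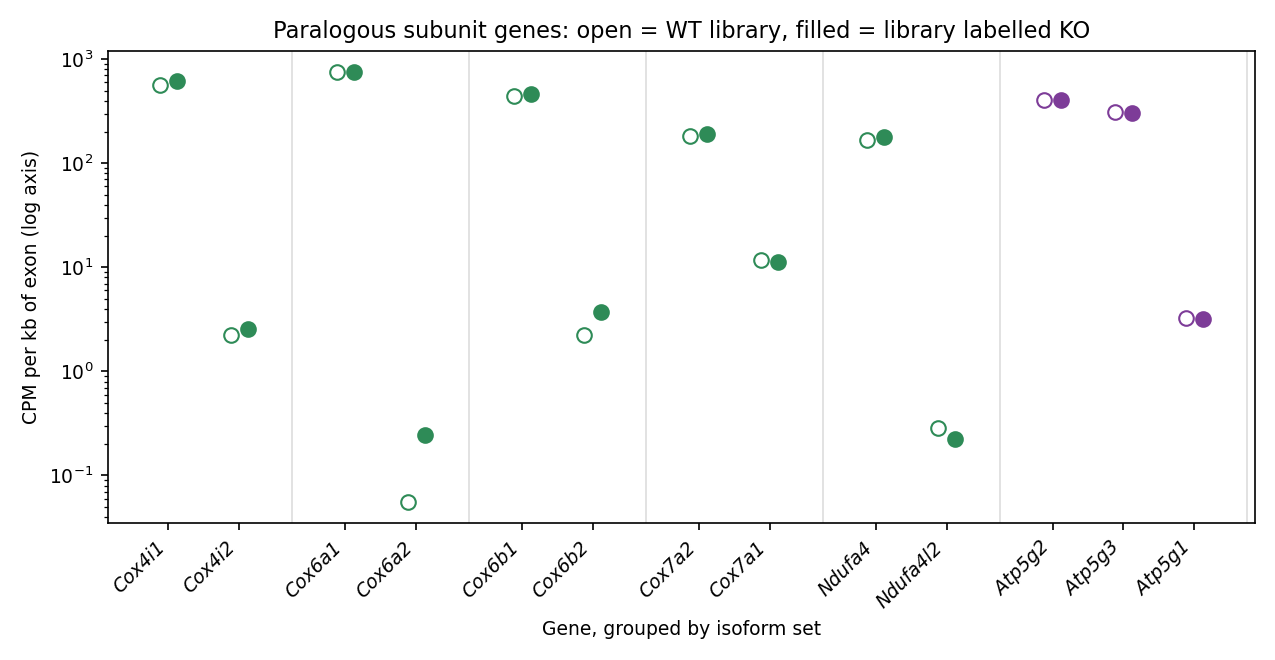
Level per kb of exon (log axis) of paralogous subunit genes, with open points for the wildtype library and filled points for the library labelled knockout. The ubiquitous form stands far above the tissue form in each complex IV set, and Atp5g2 and Atp5g3 stand far above Atp5g1.

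Complex V, the ATP synthase, held the most abundant genes, and its parts differed slightly in direction. The 15 genes had 139606 and 156448 reads, a ratio of 0.984 (0.976 to 0.991), with a median of 294 and 281 CPM per kb. Of these reads, 71191 and 81638 came from Atp5b and Atp5a1, with a summed ratio of 0.961 (0.952 to 0.971). Of the 15 ratios, 7 were above 1 and 8 below, with a median log2 ratio of -0.01. The interval lay above 1 for 4 and below 1 for 3 (26.7% and 20%, against 16.2% and 19.5% of all genes tested). For all genes of 10 CPM or more these shares were 18.2% and 24.5%. Atp5b, the catalytic beta subunit, had 1958 and 2036 CPM and a ratio of 0.962 (0.950 to 0.974). Atp5a1, the alpha subunit, had 24188 and 27781 reads and a ratio of 0.960 (0.943 to 0.976). In the central stalk, Atp5d was at 1.05 (1.03 to 1.08) on 15081 and 15802 reads and Atp5e at 1.08 (1.02 to 1.14) on 2315 and 2368. Atp5c1, the gamma subunit that rotates inside the head, had far fewer, 635 and 735 reads, with a ratio of 0.952 (0.855 to 1.06) and 3 curated transcripts.

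In the peripheral stalk, Atp5f1 had the lowest ratio of complex V, 0.917 (0.890 to 0.946), on 7494 and 9003 reads. The small membrane subunit Atp5k had the highest, 1.199 (1.11 to 1.29), on 1476 and 1357 reads. None of the 15 passed the 1.2-fold limit, Atp5k lying just inside it (past it when the libraries were scaled by total counts or the deeper one was thinned). Atp5j2, Atp5j, Atp5h and Atp5o, at 1.02, 1.01, 0.992 and 0.981, had intervals that include 1. The ring of c subunits is encoded by 3 genes whose mature proteins are the same. Atp5g2 had 7111 and 7837 reads, which is 296 CPM in both (interval of the ratio 0.968 to 1.03), and Atp5g3 had 5324 and 5995, a ratio of 0.979 (0.943 to 1.02). Atp5g1 had only 373 and 426, a ratio of 0.965 (0.838 to 1.11). Per kb, Atp5g2 took 56.7% and 56.2% of the set, Atp5g3 42.9% and 43.4% and Atp5g1 0.443% and 0.454%. These levels rest on uniquely assigned reads. Of the 50-base words, 87.4% of those in Atp5g2 transcripts also stand in transcripts of 2 other annotated genes, against 11.1% for Atp5g1 and 0% for Atp5g3. For the membrane subunit Atp5l the share was 68.5%, with 13 other genes, and the counts of Atp5g2 and Atp5l are uncertain. With the median transcript length, the mean level of Atp5g1 was 5.91 CPM per kb in place of 3.22.

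Other members' counts are uncertain for the same reason. In all, 12 of the 91 shared 20% or more of their 50-base words with other genes, which besides Atp5g2, Atp5l and Cycs (28.5%) were Uqcrb (43.2%), Atp5h (38.8%), Ndufb4, Ndufs3 (35.8%), Ndufa12, Atp5f1 (23.2%), Cox7c, Cox5b and Ndufs5. Exons of another annotated entry covered 20% or more of the exon length of 8 members. Among them were Atp5f1 (21.0%), Uqcrc2 (26.6%), Ndufb9 (28.6%) and Atp5o (48.6%). For Atp5o the overlapping entries include another one of the same symbol, so part of its share may not be overlap with another gene.

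The symbols Atp5s and Atp5sl also match the rule but are not counted among the structural subunits, and both carry other names today, Dmac2l and Dmac2. Atp5s had 66 and 95 reads, a ratio of 0.767 (0.551 to 1.06). Atp5sl, whose product takes part in the assembly of complex I, had 1182 and 1492 reads and a ratio of 0.873 (0.808 to 0.943). Both ratios stood below 1, as did those of 5425 of all 10462 genes tested, and the Atp5s interval includes 1.

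Across the complexes, shorter genes had higher ratios. Among the 81 members of 10 CPM or more, the log2 ratio and the exon length had a Pearson r of -0.56 and a Spearman rho of -0.54 (across genes, which share both libraries and are not replicates). The 37 members with exons under 1 kb had a median log2 ratio of 0.07, with 21 intervals above 1 (56.8%) and none below. The 31 of 1 to 2 kb had a median just below 0, -0.003, with 8 intervals above and 5 below. The 13 of 2 kb or more, among them Atp5a1, Sdha, Sdhc, Cycs and Ndufaf7, had a median of -0.06, with 1 above and 5 below.

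Short genes outside the respiratory chain also had a median above 0. The 297 other genes of 10 CPM or more and under 1 kb had a median of 0.05, with 35.7% of intervals above 1. Those of 1 to 2 kb had -0.01 and those of 2 kb or more -0.02. Of all 334 genes of 10 CPM or more and under 1 kb, members included, 38% had an interval above 1 and 8.38% below. At the same level the shares were 18% and 23.8% for genes of 1 to 2 kb, and 17% and 25.7% for genes of 2 kb or more. Over the 7089 other genes of 10 CPM or more and every length no such relation was seen, with a Spearman rho of 0.007. Whether length takes part in the ratios above was not tested. Cox8a, Uqcr10, Uqcr11, Ndufa7 and Atp5k, all given above with ratios of 1.07 to 1.21, have exons of 550, 434, 445, 528 and 371 bases. Uqcrq counts among the genes of 1 to 2 kb by its merged exons, 1827 bases, but its median transcript has 504.

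**Figure D4:**
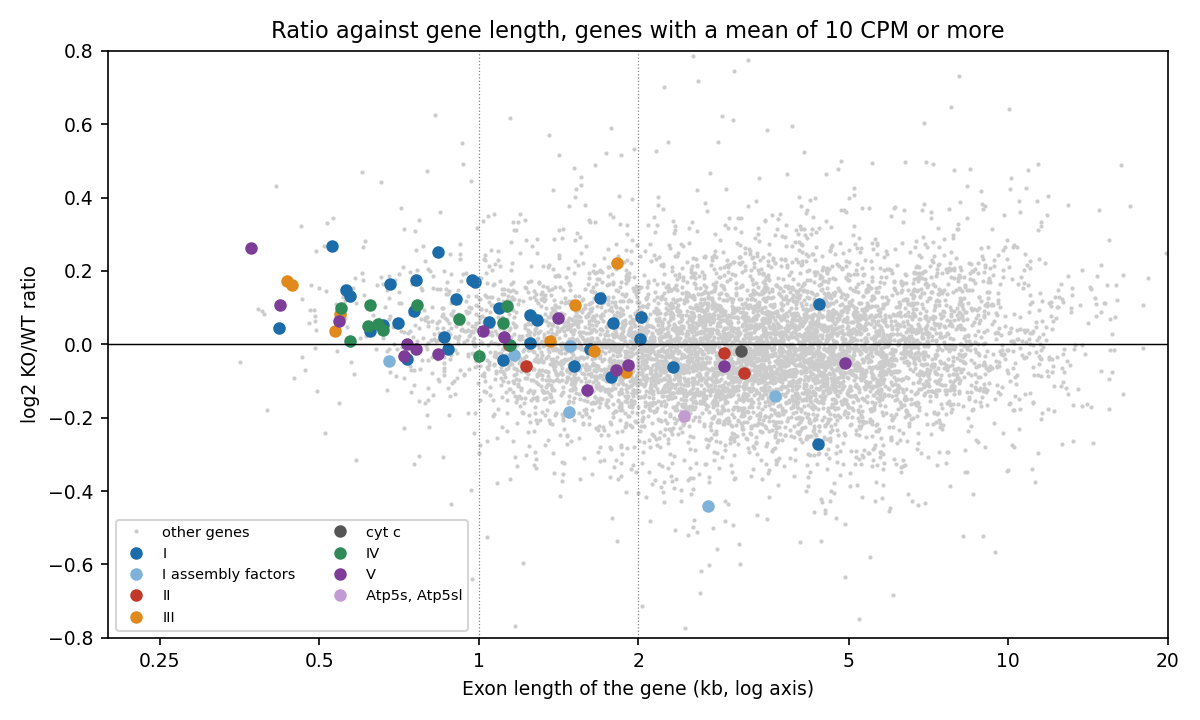
Log2 KO/WT ratio against exon length (kb, log axis) for genes of at least 10 CPM, with 81 respiratory chain genes coloured by complex and 7069 other genes in grey (another 20 lie outside the axes). Dotted lines mark 1 and 2 kb, and most coloured points under 1 kb lie above 0, as does the median of the grey points there.

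Genes that work beside the respiratory chain were taken from 2 further lists. Of 17 citric acid cycle and pyruvate dehydrogenase genes, all of which reached 1 CPM, none passed the 1.2-fold limit and the median was -0.04. Of 15 regulators of mitochondrial gene expression, 13 were listed and 12 reached 1 CPM, none was 1.2-fold higher, 2 of the 12 were lower (against 5.48% of all genes) and the median was -0.04. The lower ones were Lrpprc, which stabilises mitochondrial messenger RNA, at 0.814 (0.765 to 0.867) on 1728 and 2339 reads, and the coactivator gene Ppargc1b, at 0.666 (0.468 to 0.934) on 56 and 93 reads. Ppargc1b was also past the 1.5-fold limit, as 1.5% of all genes were. Ppargc1a and Myc were not listed.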

How the data were processed

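The authors deposited 1 file per library of raw counts, the uniquely assigned reads of each gene symbol, per the file headers. Tools named in the submitters' processing notes are bcl2fastq and HTSeq, with the build mm10. The sources used here name no aligner, annotation or strand setting. A gene not listed was taken as 0 reads, since the lowest listed count was 1.

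Libraries were scaled with TMM factors (edgeR 4.0.16, R 4.3.3). Ratios of single genes used a prior count of 0.5 and summed ratios none, and intervals are 95% exact conditional binomial (Clopper-Pearson). No residual degrees of freedom exist with 1 library per group, so no edgeR test was fitted. Genes entered at a mean of 1 CPM, and calls needed 1.5-fold or 1.2-fold with an interval excluding 1. Exon lengths and 50-base words came from GENCODE M21 (all 91 genes matched), transcript numbers and promoters from RefSeq GRCm38.p6. Python 3.11.15, numpy 2.4.6, scipy 1.17.1, pandas 2.3.3 and matplotlib 3.10.9 were used, and the steps were tested on simulated data.

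The members and lists were chosen with earlier results of these data known. The rule for names took, per complex, the 3 most abundant genes, the 3 highest and 3 lowest ratios among genes with 10 CPM in the higher library, all genes past 1.5-fold or under 1 CPM, the isoform sets, all Sdh genes, Cycs and Cyc1, and up to 4 genes past 1.2-fold from each other list. Other genes named, such as further core subunits, Ndufs5, Ndufa10 and Ndufa11, were chosen after their values were seen. Some genes that these rules take are left out of the text. Alternatives were other scalings (total counts, DESeq2 1.42.0 size factors, upper quartiles), other filters, a prior count of 5, a thinned deeper library and genes with 1 curated transcript.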

Additional observations from a re-analysis of the deposited data

How the results depend on the processing

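Scaling by total counts, DESeq2 size factors or upper quartiles, no filter on low counts and a prior count of 5 left every count of members past a limit within 1.5 times its value. Every median per complex moved by less than 0.121, the SD of log2 ratios over all genes of 100 CPM or more. That limit is wider than the medians of complexes I to V themselves, so it is a weak check. Summed ratios take neither a filter nor a prior count, and each stayed within its counting interval under these scalings. Scaling by total counts put Atp5k past the 1.2-fold limit, for 5 members in place of 4. With a mean of 10 CPM or more, 0 members were 1.5-fold higher and 1 was 1.2-fold higher (Ndufa7), in place of 2 and 4, because Ndufs1, Cox6b2 and Ndufs5 lie below that level. After thinning of the deeper library 1 member was 1.5-fold higher (Cox6b2), in place of 2, and 4 were 1.2-fold higher, with Atp5k in and Ndufs1 out. Restricted to members with 1 curated transcript, 0 were 1.5-fold higher, 1 was 1.2-fold higher (Ndufs5) and 1 was 1.2-fold lower (Ndufaf7), and the summed ratios were 1.017 for complex III and 0.976 for complex V. The ratios of the 55 members named by rule stayed within their main intervals under each scaling, the larger prior count and thinning. Lengths taken from the median transcript, an alternative chosen after seeing the data, gave a Spearman rho of -0.63 between ratio and length. They moved the level per kb of 17 members by over 1.5 times, Uqcrq most (3.62 times), and no median per complex by as much. No paired analysis was possible because each genotype has 1 library. Leaving out a replicate was not possible for the same reason. Depth limits Ndufs1 and the tissue isoforms, whose intervals are wide.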
